A study of Mus musculus with 6 samples.

Results

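Dopamine receptor D4 (Drd4) and 8 further genes of retinal dopamine and cAMP signalling were followed in the retinas of mice whose rods lack Dicer1, the enzyme that makes mature microRNAs from their hairpin precursors. The 9 genes were taken by name from the 22731 rows of the deposited RPKM table: the dopamine receptor genes Drd4, Drd2, Drd1a and Drd5, the tyrosine hydroxylase gene Th, the dopamine transporter gene Slc6a3, the adenylyl cyclase genes Adcy1 and Adcy2, and Aanat of melatonin synthesis. All 9 were in the table. The set was chosen by gene role with the RPKM difference between cKO and control in these same libraries already known, so its values are given as a description with no p-value. RPKM scales reads by the length of the gene model and the reads of the library, so levels between genes rest on those lengths. The length model is not stated: the length recovered for Drd4 is 1336 bases, where its exons in GENCODE M21 span 3381 bases, and every ratio or share between genes given here depends on such lengths. Differences of 1 gene between groups do not. The fit across all genes took those averaging 1 RPKM or more across libraries, which 7 of the 9 did. The lowest that entered was Drd5, with a mean of 1.80 RPKM. Aanat, with a mean of 0.794 RPKM, and Slc6a3, with 0.0764 RPKM, did not enter.

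The conditional knockout (cKO) retinas were Dicerfl/fl, iCre75+ and the control retinas were Dicerfl/fl, iCre75-, all on a mixed C57BL/6J - SJL background and all from animals of 4 weeks. In the iCre75 line a rod-specific promoter drives Cre recombinase, so other retinal cells keep Dicer1. Both groups carried the floxed alleles and the cKO group alone carried the transgene, so effects of the transgene and of the loss of Dicer1 cannot be told apart. The controls were littermates. Each group had 3 libraries (cKO replicates 2, 3 and 4, control replicates 1, 2 and 3), each of poly(A) RNA from 4 pooled mice, with retinas taken between 8 and 10 in the morning.

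Dopamine is the light-adaptation signal of the retina. A sparse class of amacrine cells makes it with tyrosine hydroxylase and releases it in light. D4 receptors on photoreceptors couple to inhibitory G proteins, which lower adenylyl cyclase activity and cAMP. D2 receptors act as autoreceptors on the dopaminergic cells, and the D1 and D5 receptors, found on inner retinal and horizontal cells, raise cAMP. In darkness cAMP rises in photoreceptors, where it sustains the enzyme encoded by Aanat. Drd4 and Adcy1 transcripts are known to cycle over the day in the mouse retina.

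Reads worked back from the RPKM steps came to between 12336426 and 29007058 in genes for the cKO libraries and between 27204444 and 32934561 for the control libraries. The targeted gene Dicer1 was at 7.66 ± 0.525 RPKM in cKO and 8.52 ± 0.222 RPKM in control retinas (SD, n = 3 each), which is a weak check of the labels since other cells and undeleted exons also give reads (limma adjusted p = 0.931). Retinal markers were present as labelled: the summed level of 7 rod markers, Nrl among them, was between 19859 and 21943 RPKM in cKO libraries and between 21028 and 24464 RPKM in control libraries. The defining marker of dopaminergic cells, Th, was above 0 in every library. Summed lens markers (6 genes) ran from 101.03 to 1338 RPKM in cKO and from 185 to 1797 RPKM in control libraries, ranges that overlap. Over the 12599 genes of the fit, limma called 1 gene (Prm1, higher in cKO) and 0 genes lower, or 0.00794% of those tested. Prm1 was nearly absent from control libraries. It was at 914 ± 194 RPKM in cKO and 0.190 ± 0.192 RPKM in control retinas, on 26321 and 9 reads. The source of these reads was not tested. At an unadjusted p under 0.05, 334 of the 12599 genes were higher and 385 lower. A share of 0.05 of all tests is expected to pass this threshold where nothing differs. With limma voom on the recovered reads, 2 genes were called higher and 1 lower.

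By level, the 9 genes ran from an abundant photoreceptor transcript to one of single reads. In control retinas the order was Drd4, Adcy1, Drd2, Adcy2, Drd1a, Th, Drd5, Aanat and Slc6a3, and the cKO retinas gave the same order. The ranges of Adcy1 and Drd2 overlapped in both groups, so by range these neighbours were not apart, though Adcy1 was above Drd2 in 5 of the 6 libraries. All other neighbours were apart in both groups and kept their order in each of the 6 libraries. Drd4 stood at 11.8 times the level of Adcy1, the next gene, in cKO retinas and at 9.53 times in control retinas.

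**Figure D1:**
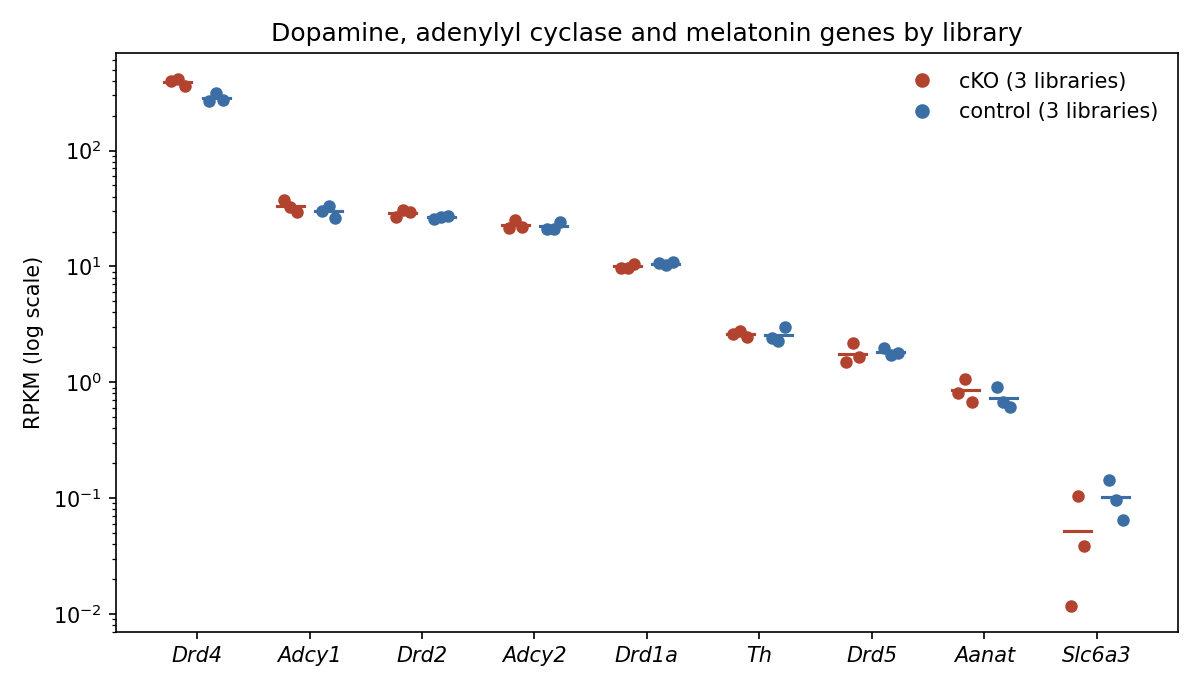
RPKM on a log axis (vertical) of the 9 genes (horizontal, in the order of their control means). Each point is a library, with cKO in red left of control in blue, and bars mark group means. The cKO points of Drd4 lie above its control points, while the points of the other 8 genes overlap between groups.

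Drd4 was, of the 7 tested genes of the set, the one that differed most between the groups by log2 fold change. It was at 399, 412 and 363 RPKM in cKO libraries 2, 3 and 4, against 267, 315 and 271 RPKM in control libraries 1, 2 and 3. Every cKO library was above every control library, and the gap between the lowest cKO and the highest control library was about as wide as the range within a group. The means were 392 ± 25.2 RPKM in cKO and 284 ± 26.7 RPKM in control retinas (SD, n = 3 each), 37.7% higher in cKO. The log2 fold change was 0.46 ± 0.11 (SE) on the log2(RPKM + 0.5) scale. In bulk retina, more cells of a type and more RNA per cell cannot be told apart.

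Drd4 rested on 7344 to 19723 reads per library, so counting error was at most 1.17% of a value, against a spread between libraries of 6.43% in cKO and 9.38% in control. Leaving out each library in turn gave log2 fold changes between 0.42, without control replicate 1, and 0.54, without control replicate 2. Among all genes tested, 0.429% had a larger log2 fold change, and of the 65 genes at least as abundant as Drd4, itself included, 2 had a larger one in size, Prm1 and Plekhb1. None of the 7 tested genes of the set passed the adjusted threshold, Drd4 included. The mean log2 value was higher in cKO for 5 of the 7 and lower for 2, beside 48.4% and 51.6% of all genes tested. Beside this, 1 of these 7 had cKO values all above the control values, where 5.91% of all genes tested did. Nothing about Drd4 is read from these shares, since the same contrast chose it.

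Relative to Nrl, which specifies rod fate, Drd4 was at 0.526, 0.4999 and 0.402 in cKO, against 0.332, 0.402 and 0.272 in control libraries, and cKO replicate 4 and control replicate 2 met. Of the 12 marker lists, the summed levels of 2 did not overlap between the groups. Of all single genes tested, 11.7% did not overlap, and nothing is read from the count of lists. The 6 bipolar cell markers summed to 313 to 338 RPKM in cKO and 280 to 292 RPKM in control libraries, and 5 of the 6 lay higher in cKO by mean log2 value. The 5 amacrine markers analysed summed to 251.2 to 277 RPKM in cKO and 245 to 250.7 RPKM in control libraries, with 4 of 5 higher. Such counts were not particular to these lists. Higher in cKO were also 5 of 6 cone, 4 of 4 tested horizontal cell and 4 of 5 ganglion cell markers, with sums that overlapped. All 6 lens markers lay lower. No bipolar or amacrine marker analysed was at 0, and the part of these cells in the Drd4 difference was not tested.

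**Figure D2:**
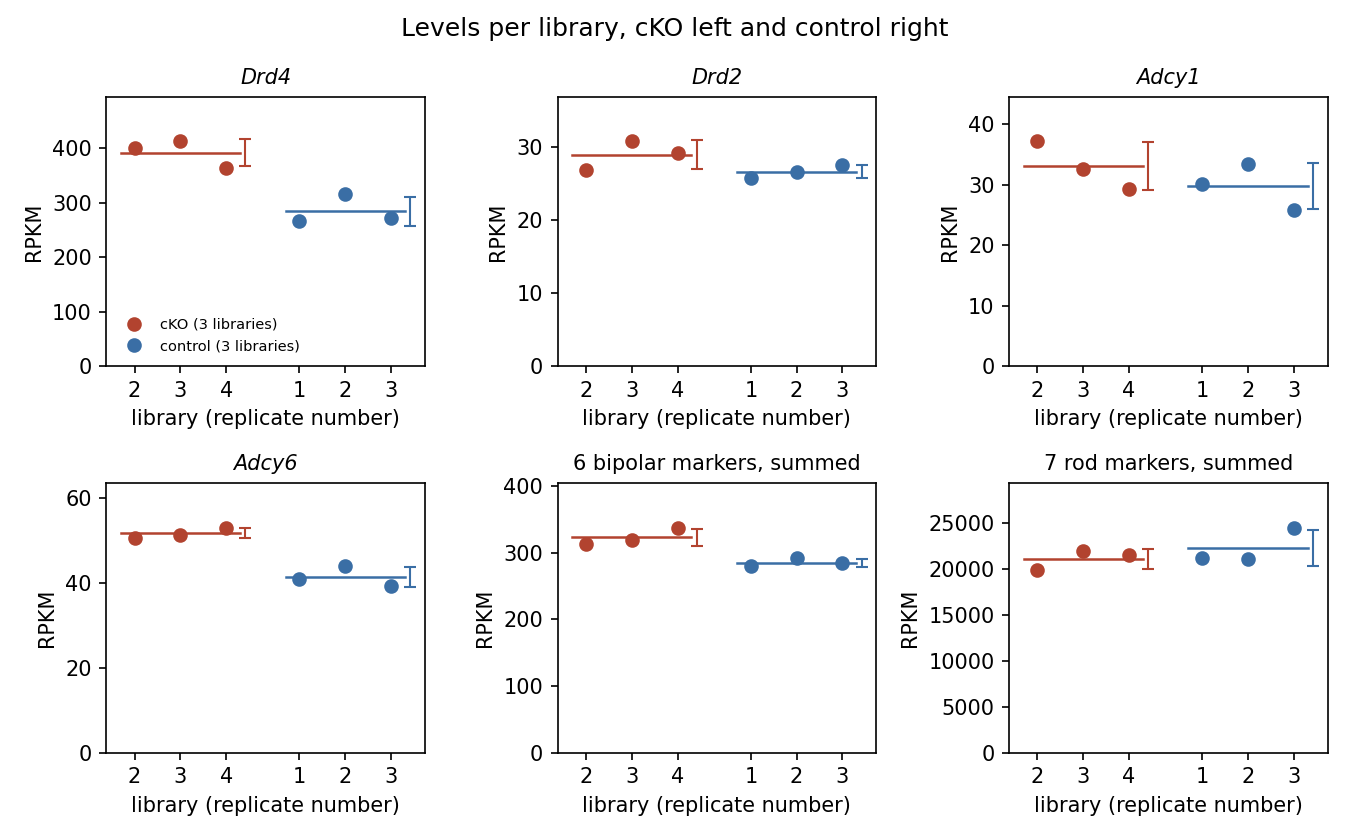
RPKM (vertical, from 0) in each library (horizontal, by replicate number, cKO red, control blue) of Drd4, Drd2, Adcy1 and Adcy6 and of the summed bipolar and rod markers. Lines are group means and error bars SD over 3 libraries. The groups are apart for Drd4, Adcy6 and the bipolar sum and overlap for Drd2, Adcy1 and the rod sum.

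The promoter of Drd4 is shown because this gene carries the difference, and that of Adcy1 because its transcript is also known to cycle with the retinal clock. Both run from 250 bases before to 50 bases after the RefSeq start (GRCm38.p6, not the build the authors used). Drd4 lies on the plus strand at chr7:141291768-141292067 and Adcy1 on the plus strand at chr11:7063183-7063482. Capitals mark the letters of an E-box (CACGTG), the element that clock factors bind.
Drd4: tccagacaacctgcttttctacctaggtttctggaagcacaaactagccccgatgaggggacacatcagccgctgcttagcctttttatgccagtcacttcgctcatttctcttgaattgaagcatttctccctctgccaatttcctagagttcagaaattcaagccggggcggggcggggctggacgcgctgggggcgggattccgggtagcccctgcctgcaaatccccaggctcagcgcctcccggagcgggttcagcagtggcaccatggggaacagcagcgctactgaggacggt
Adcy1: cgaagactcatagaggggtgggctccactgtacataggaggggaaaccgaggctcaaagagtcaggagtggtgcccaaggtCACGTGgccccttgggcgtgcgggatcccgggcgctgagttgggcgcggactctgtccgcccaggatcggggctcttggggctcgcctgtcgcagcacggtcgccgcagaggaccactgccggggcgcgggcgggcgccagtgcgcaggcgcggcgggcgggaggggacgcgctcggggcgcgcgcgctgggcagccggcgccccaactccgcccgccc

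On both strands of these windows, Adcy1 held 1 E-box, at positions -169 to -164 from the start, and Drd4 held none. Neither held the photoreceptor CRX-type motif TAATCC or the cAMP-response half-site TGACG. Of 32851 RefSeq promoters of this length, 7.15% hold the E-box, 7.06% the CRX-type motif and 20.8% the half-site. A match of letters is not a binding site, and a missing match says only that these letters are not in this window. Among the other genes of the set with a promoter in the table, Slc6a3 held 1 E-box and Th held 2 overlapping half-sites, which face each other as a full cAMP-response element. Drd2, Drd1a, Drd5 and Adcy2 held none of the 3.

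The values of the other 3 receptor genes overlapped between the groups. Drd2, the D2 autoreceptor gene, was at 26.8, 30.7 and 29.2 RPKM in cKO, against 25.7, 26.5 and 27.5 RPKM in control libraries, and the groups overlapped through cKO replicate 2. Its log2 fold change was 0.12 ± 0.08 (SE). Drd1a, the D1 receptor gene, was at 9.72, 9.73 and 10.5 RPKM in cKO, against 10.6, 10.2 and 10.8 RPKM in control libraries, with a log2 fold change of -0.075 ± 0.075 (SE). The cKO libraries 2 and 3 were below all controls and cKO library 4 was within them. Drd5, the D5 receptor gene, was at 1.48, 2.17 and 1.65 RPKM in cKO, against 1.98, 1.71 and 1.81 RPKM in control libraries, and the cKO values lay on both sides of the control values. It rested on as few as 70 reads, its exons share 1531 bases with an annotated gene on the opposite strand (Gm26560, GENCODE M21), and its log2 fold change of -0.050 ± 0.13 (SE) was 0.041 without cKO replicate 2. Drd3 was listed at 0 in all 6 libraries.

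Drd4 made up most of the dopamine receptor RPKM in every library. Its share of the sum of Drd4, Drd2, Drd1a and Drd5 was 91.3%, 90.6% and 89.8% in cKO libraries, against 87.5%, 89.1% and 87.1% in control libraries, and the groups did not overlap. Drd4 stood at 14.9, 13.4 and 12.4 times Drd2 in cKO, against 10.4, 11.9 and 9.86 times in control libraries. The ratio of Drd2 to Drd1a, which leaves Drd4 out, was 2.75, 3.15 and 2.77 in cKO, against 2.43, 2.59 and 2.53 in control libraries, again with no overlap. These shares and ratios restate the same values and are no separate evidence.

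The dopamine synthesis and transport genes of the set were at low levels in whole-retina RNA. Th, the rate-limiting enzyme, was at 2.62, 2.76 and 2.45 RPKM in cKO, against 2.43, 2.25 and 2.99 RPKM in control libraries, and control replicate 3 was above all cKO libraries. Its log2 fold change was 0.031 ± 0.11 (SE), -0.0037 without cKO replicate 3 and -0.042 without control replicate 2. With as few as 65 reads, counting error reached 12.4%, beside a spread of 6.09% in cKO and 15.2% in control. Slc6a3, which returns dopamine to the releasing cell, had 1, 13 and 2 reads in cKO and 17, 13 and 9 reads in control libraries, or 0.0118, 0.105 and 0.0383 RPKM against 0.143, 0.0965 and 0.0643 RPKM. No fold is given at this depth.

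In a list of 14 further genes of dopamine synthesis, storage and breakdown, 8 were tested, of which 3 lay higher and 5 lower in cKO by mean log2 value, and 0 were called in either direction. Their median log2 fold change was -0.034, beside -0.0050 for all genes tested. With each library left out in turn it ran from -0.18, without control replicate 2, to 0.052, without cKO replicate 2. Without cKO replicate 4 it came to -0.15, and without control replicate 3 to 0.020. Qdpr, which recycles the cofactor of tyrosine hydroxylase, was the most abundant at 45.0 ± 3.79 RPKM in cKO and 48.8 ± 7.04 RPKM in control retinas. Spr, which makes that cofactor, was at 20.9 ± 0.939 RPKM in cKO and 26.1 ± 3.17 RPKM in control retinas, the cKO values all below the control values (limma adjusted p = 0.848). The 5 markers of dopaminergic amacrine cells summed to 5.68 to 6.12 RPKM in cKO and 5.87 to 7.03 RPKM in control libraries. Of the 2 tested, Th and Nr4a2, the transcription factor gene Nr4a2 had all cKO values below the controls. It was at 2.04 ± 0.135 and 2.45 ± 0.126 RPKM in cKO and control (limma adjusted p = 0.865). Slc18a2, too low to be tested, also had all cKO values below the controls (0.766 ± 0.0698 and 0.969 ± 0.143 RPKM in cKO and control). Th, Slc6a3 and Ddc overlapped between the groups. Of all genes tested, 5.78% had all cKO values below the controls.

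Adcy1 and Adcy2 encode membrane adenylyl cyclases, Adcy1 the calcium-stimulated cyclase of photoreceptors. Adcy1 was at 37.2, 32.7 and 29.3 RPKM in cKO, against 30.2, 33.4 and 25.9 RPKM in control libraries. The groups overlapped over most of their range, and the log2 fold change was 0.15 ± 0.13 (SE), between 0.052 and 0.23 when each library was left out. Adcy2 was at 21.6, 25.3 and 21.8 RPKM in cKO, against 21.2, 21.2 and 24.3 RPKM in control libraries, with 1 library of each group above the rest. Its log2 fold change was 0.041 ± 0.099 (SE), and -0.032 without cKO replicate 3.

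Adcy1 and Adcy2 were not the most abundant cyclases. Adcy6, a calcium-inhibited cyclase from the list of other cyclases, was at 50.7, 51.3 and 53.0 RPKM in cKO, against 40.9, 43.9 and 39.2 RPKM in control libraries. The 3 cKO libraries lay close together above all controls, at 51.6 ± 1.198 RPKM and 41.3 ± 2.39 RPKM in cKO and control retinas (SD, n = 3 each). The log2 fold change was 0.32 ± 0.08 (SE), and it did not pass (limma adjusted p = 0.701). Below these 3 cyclases came Adcy5 at 12.1 ± 1.94 RPKM in cKO and 11.7 ± 2.07 RPKM in control retinas, Adcy8, Adcy3 and Adcy9 between 3.54 and 4.23 RPKM in group means, and Adcy7, Adcy4 and Adcy10 under 1 RPKM. Of the 8 other cyclases 5 were tested, 4 of them higher and 1 lower in cKO, 0 called, and the median log2 fold change was 0.051. With each library left out in turn it ran from -0.018, without control replicate 3, to 0.18, without cKO replicate 4. It was -0.0094 without cKO replicate 2, and 0.20 with the 4 libraries of replicate numbers 2 and 3 alone.

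Adcy6 has been reported as a target of miR-96 and miR-182 in mouse retina. Those microRNAs come with miR-183 from 1 photoreceptor-enriched cluster. Their mature sequences (RefSeq, GRCm38.p6) are shown with the seed, bases 2 to 8, in capitals, together with miR-204 and miR-9, whose sites were found in Drd4 and Drd2. The seeds of miR-96 and miR-182 share their first 6 bases.
mmu-miR-183-5p: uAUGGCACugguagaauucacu
mmu-miR-96-5p: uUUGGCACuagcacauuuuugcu
mmu-miR-182-5p: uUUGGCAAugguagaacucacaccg
mmu-miR-204-5p: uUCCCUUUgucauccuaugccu
mmu-miR-9-5p: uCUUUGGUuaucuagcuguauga

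The longest annotated 3′ UTR of each gene (GENCODE M21) was searched for the 7 letters complementary to these seeds and that of let-7a. The 9 genes held few matches: Drd4 held 1 of miR-204 in 1603 bases, Drd2 1 of miR-9 in 1083 bases, and Adcy1 2 of miR-183 in 8791 bases. Such matches are common: 16.69% of tested genes with a 3′ UTR held one of miR-204, 14.45% of miR-9 and 11.55% of miR-183. The 3′ UTR searched for Drd4 is longer than the 1336 bases recovered for its whole gene model, so the searched and counted models differ. Drd1a, Drd5, Th, Slc6a3, Adcy2 and Aanat held none. Adcy6, searched after its values were seen, held 6 matches of the miR-183, miR-96 and miR-182 seeds and 2 of miR-204 in 2377 bases. Among 11048 tested genes with a 3′ UTR, 28.4% held at least 1 match of the 3 cluster seeds. At least as many as in Adcy6 were held by 8 genes (0.0724%), Adcy6 included. Since Adcy6 was a reported target of miR-96 and miR-182 before this search, nothing about its level is read from this share. Longer sequences hold more matches, and the 3′ UTR of Adcy6 is longer than the median of 1240 bases among tested genes. The matches below are shown 5′ to 3′ with the seed match in capitals, for Drd4, Drd2, Adcy1 and the 6 cluster matches of Adcy6. A match of letters does not show that a microRNA acts there.
Drd4, miR-204: tcttccttagaggAAAGGGAaaca
Drd2, miR-9: ctgtctccttggcACCAAAGaagc
Adcy1, miR-183: ccctcctcttcctGTGCCATggct
Adcy1, miR-183: gcttccatgggctGTGCCATcctg
Adcy6, miR-182: ggaatgtttccatTTGCCAAatcc
Adcy6, miR-96: tggtgacctgcagGTGCCAAagaa
Adcy6, miR-182: tctatcccttgtaTTGCCAAatag
Adcy6, miR-96: ggccaagtttcctGTGCCAAggga
Adcy6, miR-96: ggagtccttttttGTGCCAAatcc
Adcy6, miR-183: gccaaatccctaaGTGCCATttgg

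Downstream of the receptors and cyclases, no list gene was called. Of the 14 G proteins, arrestins and receptor kinases that act with dopamine receptors, 10 lay higher and 4 lower in cKO, with a median log2 fold change of 0.069. Gnas, the stimulatory G protein, was the most abundant at 190.1 ± 18.5 RPKM in cKO and 189.5 ± 25.8 RPKM in control retinas. Ric8b, a chaperone of stimulatory G proteins, was at 51.0 ± 6.58 and 43.0 ± 2.45 RPKM in cKO and control (limma adjusted p = 0.898), with all cKO values above the controls. Gnai3, an inhibitory G protein, was at 7.74 ± 1.07 and 8.74 ± 0.992 RPKM in cKO and control (limma adjusted p = 0.971).

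The 13 tested cAMP phosphodiesterases split 6 higher and 7 lower, 0 called, with a median log2 fold change of -0.0037. Pde1b was the most abundant at 35.6 ± 2.52 RPKM in cKO and 33.6 ± 1.83 RPKM in control retinas. Pde4a was at 13.3 ± 0.587 and 11.9 ± 0.162 RPKM and Pde4d at 4.48 ± 0.268 and 5.41 ± 0.673 RPKM in cKO and control (limma adjusted p = 0.906 and 0.871). Of 17 tested genes of protein kinase A and other cAMP effectors, 8 were higher and 9 lower, 0 called, with a median of -0.0060. Prkar1a, a regulatory subunit of the kinase, was the most abundant at 109 ± 3.65 RPKM in cKO and 109 ± 3.94 RPKM in control retinas. Crtc2, a CREB coactivator, was at 22.1 ± 1.14 and 19.3 ± 0.376 RPKM, and Crem, a cAMP-responsive transcription factor, at 2.01 ± 0.171 and 2.44 ± 0.438 RPKM in cKO and control (limma adjusted p = 0.871 and 0.935).

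**Figure D3:**
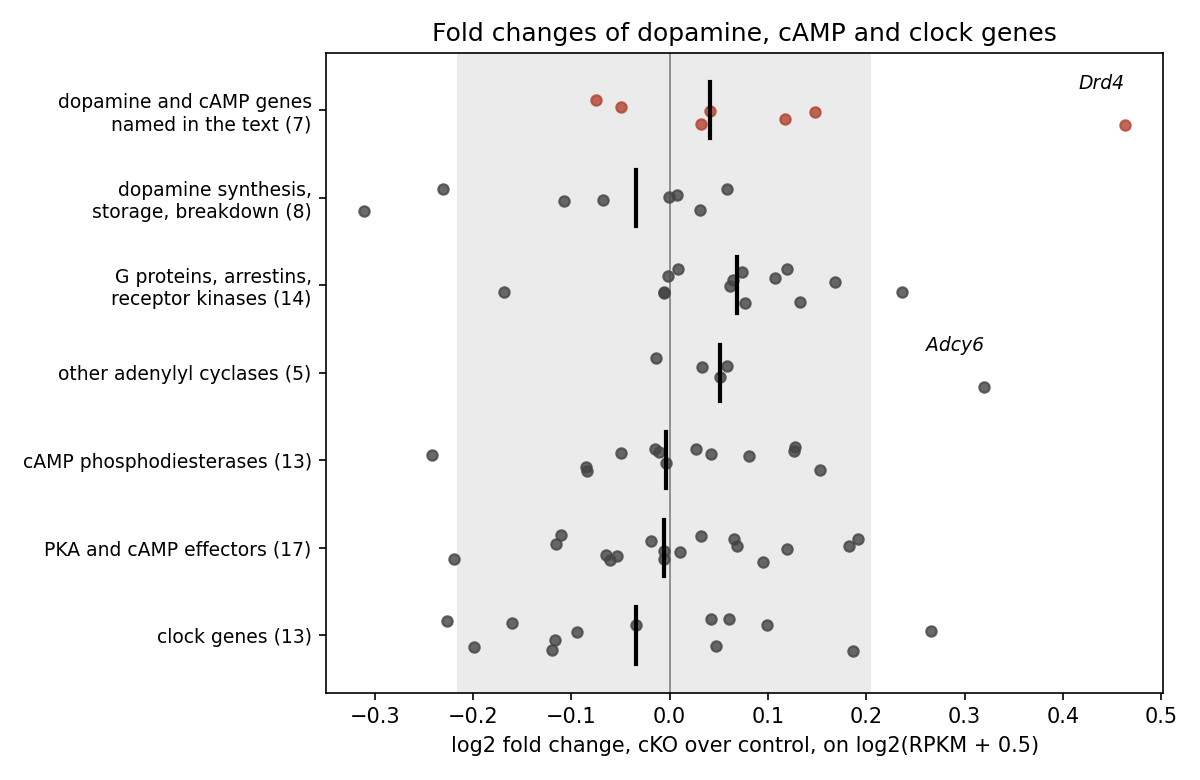
Log2 fold change of cKO over control on the log2(RPKM + 0.5) scale (horizontal) for the 7 tested genes of the set (red, top row) and the tested genes of 6 pathway lists (grey). Each point is a gene, black bars are medians and the band holds the central 5th to 95th percentile of all genes tested, from -0.21 to 0.20. Drd4 at 0.46 and Adcy6 at 0.32 lie furthest right, and the list medians run from -0.035 to 0.069.

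Aanat encodes the enzyme that acetylates serotonin on the way to melatonin. It was at 0.813, 1.07 and 0.681 RPKM in cKO, against 0.918, 0.670 and 0.611 RPKM in control libraries, on 15 to 56 reads. The groups overlapped, and counting error of up to 25.8% was as large as the spread between libraries (23.3% in cKO, 22.3% in control). Of 6 further genes of melatonin synthesis and reception, Asmt was not analysed here and 1, Tph2, was tested. Tph2, a tryptophan hydroxylase gene, was at 0.975 ± 0.139 RPKM in cKO and 1.05 ± 0.0371 RPKM in control retinas (limma adjusted p = 0.997). The melatonin receptor gene Mtnr1a was at 0.0543, 0.167 and 0.132 RPKM in cKO, against 0.271, 0.137 and 0.296 RPKM in control libraries.

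Clock genes, on which the daily cycles of Drd4 and Adcy1 are known to depend, split 6 higher and 7 lower among 13 tested, 0 called, with a median log2 fold change of -0.035. Nr1d1, the most abundant, was at 144 ± 7.26 RPKM in cKO and 135 ± 5.32 RPKM in control retinas. Per3 was at 13.03 ± 0.678 and 10.8 ± 1.41 RPKM and Clock at 10.1 ± 0.968 and 11.9 ± 0.928 RPKM in cKO and control (limma adjusted p = 0.865 and 0.874). Npas2, whose product acts with dopamine on Adcy1 in retinal neurons and which the naming rule did not pick, was at 1.25 ± 0.121 RPKM in cKO and 1.199 ± 0.123 RPKM in control retinas. Over all 71 distinct list genes tested, 37 were higher, 34 were lower and 0 were called, and the cKO values lay all above the controls for 11.3% and all below for 4.23%, where all genes tested gave 5.91% and 5.78%.

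The genes most like Drd4 over the 6 libraries, by Pearson's r of the log2 values, included Zfp335, Sorbs3, Ppp1r16a and Pgap3, with r between 0.994 and 0.997. Among 12598 genes 208 reached 0.9, and with 6 libraries in 2 groups such values need no shared feature of the genes. In the deviations from the group means, r with Drd4 was 0.982 for Zfp335, 0.977 for Sorbs3, 0.990 for Ppp1r16a and 0.972 for Pgap3. These values are no separate evidence, since genes picked for so high an r over the 6 libraries have little room to differ within groups. Pgap3, which remodels GPI anchors, was at 25.5 ± 2.51 RPKM in cKO and 18.05 ± 1.75 RPKM in control retinas. Among the set itself, Adcy1 had an r of 0.666 with Drd4, Drd2 one of 0.648 and Drd1a one of -0.851.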

How the data were processed

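Retinal poly(A) RNA of 3 cKO and 3 control libraries, grouped by source name, was sequenced from random-primed cDNA per the labels' protocols, which describe no step that marks strand. The authors deposited RPKM values per gene and library. GSNAP, HTSeq and mm9 were used, per the submitters' processing notes, and the sources used here do not give the annotation, length model or treatment of multiply matching reads. Values were used as deposited. The main test was limma 3.58.1 (R 4.3.3) on log2(RPKM + 0.5) with a variance trend, on the 12599 genes averaging 1 RPKM or more, with two-sided p-values adjusted by Benjamini-Hochberg and a threshold of 0.05. Fold changes on this scale understate those of low genes.

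Reads were worked back as the smallest denominators and lengths that put a gene's 6 values on whole reads, which was found for 19138 of 19140 genes above 0, each returned within 1e-05 RPKM. Both steps were tested on simulated data. Within a group, pairs of libraries differed by more than sampling noise (chi-square per degree of freedom 11.1 to 36.1). The libraries are biological replicates per the series' design, and p-values measure the spread between pools of 4 mice.

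The genes and lists were chosen with earlier results of these data known. From each list the most abundant gene and, per direction, the gene of smallest p were named, and any other was picked after its values were seen. Alternatives were other pseudocounts, filters, scalings and variance models, each library left out, a replicate block, and voom on the recovered reads. Motifs and seeds were matched to RefSeq and GENCODE M21 sequence on GRCm38. Counting error covers reads as counted and not their independence. Some genes that the naming rule picks are not reported here.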

Additional observations from a re-analysis of the deposited data

How the results depend on the processing

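The Drd4 log2 fold change ran from 0.42 to 0.54 over the 17 alternatives, each within the spread between libraries. The other 6 tested genes of the set also stayed within theirs wherever they could be computed (Drd5 and Th fall below the filter of 5 RPKM). Drd5, Th and Adcy2 changed sign in some settings. In many of these settings the limit could not be crossed. With 3 libraries per group, leaving 1 out moves a gene by less than its spread. Changes of filter or variance model leave a gene's value as it was. Staying within the spread is therefore weak evidence of stability. Aanat and Slc6a3 enter only with no filter on low values. Calls of higher genes numbered 2 with a mean of at least 5 RPKM and with no variance trend, 3 with median-of-ratios and with upper-quartile scaling, and 2 with voom on recovered reads, which was chosen after seeing the data. Calls of lower genes numbered 2 with no filter on low values and 1 with voom. None of these calls was a gene of the set or of a pathway list. The replicate block could use numbers 2 and 3 alone, 4 libraries with 1 residual degree of freedom, and called 86 genes higher and 106 lower, with Drd4 at 0.47 and among them. The same 4 libraries with no block called 1 higher and 0 lower. The samples share only a number: the deviations from the group means correlated at 0.465 for number 2 and -0.052 for number 3. Of 118 list medians over the alternatives 11 moved beyond the spread, 6 of them for the phosphodiesterases, at 0.033 to 0.094. Read depth limits Slc6a3, Aanat, Drd5 and Th.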
